A study of Homo sapiens with 6 samples.

Results

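Chromosome 2 of HepG2, a human hepatocellular carcinoma cell line, held 10097 of 38696 candidate islands in untreated cells and 15111 of 67802 after DRB in chromatin immunoprecipitation sequencing of METTL14. An island is a run of neighbouring windows that the caller SICER joined. Members were all chromosome 2 islands of both deposited tables outside a 100 kb window of the p arm, which held 2 further untreated and 15 further DRB islands not analysed here. All cells carried METTL14 cDNA with an HA tag and EGFP from a lentiviral vector, were puromycin-resistant and were sorted for high GFP. Untreated cells gave 2 immunoprecipitation (IP) libraries with HA antibody and 2 input libraries without antibody, which the deposited table does not keep apart. Cells given 100 µM DRB for 3 h gave 1 library of each kind. The IP therefore reports overexpressed, tagged METTL14, and no error between replicates can be given for any value below.

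METTL14 forms a complex with the methyltransferase METTL3 that writes N6-methyladenosine on nascent RNA, and METTL14 helps the complex to hold its RNA substrate. Because methylation occurs largely while RNA is being made, the complex can be crosslinked to chromatin at transcribed genes. DRB blocks the kinase CDK9 and so keeps RNA polymerase II from entering productive elongation. HepG2 is aneuploid and carries extra copies of several chromosomes, chromosome 2 among them. Copy number sets how many reads of input and IP a stretch of chromatin gives, and it was not measured here.

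Folds below compare IP with input reads after multiplying by the authors' constant, 1.07 untreated and 0.861 with DRB. Pooled over the whole table, the fold was 1.03 untreated and 0.76 with DRB. These totals include a mitochondrial island, and nuclear islands off chromosome 2 gave 1.06 and 1.28. Whether mitochondrial reads entered the constants was not known, so the level of the DRB folds is uncertain. The interval of a fold is an exact 95% (Clopper-Pearson) interval that covers counting error only, since reads are not independent molecules. Positions are on hg19 and start at 1. No hg19 annotation was used here, so a gene named at a position was placed from general knowledge of that map, after the values were seen. The 8 genes called named loci lie in the same order along chromosome 2 in RefSeq on GRCh38.p14; PID1, placed in the same way, was not part of that check.

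The untreated island of smallest p on the chromosome lay over RHOB, and SP5, CCL20, ZFP36L2 and PTMA were under islands ranked 3, 5, 9 and 10. Rank 7 lay within PID1, which is described below and is not one of the 8 named loci. Other islands of similar rank were given no gene name. Among them, chr2:88313801-88319800 (rank 4) had 640 IP and 406 input reads, a fold of 1.69 (1.49 to 1.92), and 0.94 (0.66 to 1.35) with DRB. Ranks 6 and 8, chr2:122285401-122298200 and chr2:121221401-121225600, had folds of 1.36 and 1.54, and 1.02 and 1.09 with DRB. RefSeq promoters, the 250 bases before the annotated start on GRCh38.p14, are printed for 4 of the 8 loci to show what kind of start site these islands span; 7 of the 8 matched by symbol. They are reference sequences chosen by gene, not sequence read from the hg19 islands. Capitals mark 3 motifs on either strand, which do not overlap each other here. They are CCAAT, the box bound by the factor NF-Y, the TATA box written as TATAAA, and the core of the motif read by the Wnt factors TCF and LEF, written as CTTTGA.

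RHOB, chr2:20446824-20447073 (+): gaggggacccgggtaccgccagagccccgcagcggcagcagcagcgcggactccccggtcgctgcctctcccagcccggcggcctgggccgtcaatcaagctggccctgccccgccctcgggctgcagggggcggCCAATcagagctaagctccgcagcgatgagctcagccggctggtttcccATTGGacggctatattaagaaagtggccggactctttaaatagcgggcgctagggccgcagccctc
SP5, chr2:170715087-170715336 (+): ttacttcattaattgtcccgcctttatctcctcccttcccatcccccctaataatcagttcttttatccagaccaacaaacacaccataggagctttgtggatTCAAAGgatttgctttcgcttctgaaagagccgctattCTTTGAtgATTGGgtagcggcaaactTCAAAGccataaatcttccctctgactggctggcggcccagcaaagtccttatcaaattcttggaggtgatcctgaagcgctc
CCL20, chr2:227813592-227813841 (+): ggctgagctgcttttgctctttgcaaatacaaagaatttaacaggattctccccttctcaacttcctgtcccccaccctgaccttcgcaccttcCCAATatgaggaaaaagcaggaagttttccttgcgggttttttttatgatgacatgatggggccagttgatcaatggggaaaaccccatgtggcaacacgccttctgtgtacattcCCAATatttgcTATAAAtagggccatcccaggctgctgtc
PTMA, chr2:231708275-231708524 (+): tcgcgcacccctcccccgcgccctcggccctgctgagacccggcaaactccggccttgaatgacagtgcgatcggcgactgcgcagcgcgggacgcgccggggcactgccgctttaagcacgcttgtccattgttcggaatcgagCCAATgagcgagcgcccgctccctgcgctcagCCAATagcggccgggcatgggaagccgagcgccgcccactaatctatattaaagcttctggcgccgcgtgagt

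These promoters are of unlike kinds. RHOB and PTMA are rich in G and C (68.8% and 66.4%) and hold 22 and 32 CG pairs, whereas SP5 and CCL20 have 45.6% and 46.8% and hold 6 and 3. The medians over 35116 RefSeq promoters of the same length were 58% and 11 CG pairs. The letters CCAAT, found in 32.0% of those promoters, occur 2 times in RHOB, CCL20 and PTMA and once in SP5. TATAAA (10.7% of promoters) occurs once, in CCL20, and the TCF and LEF core (11.2% of promoters) occurs 3 times in SP5. These counts describe letters in 1 window and not binding.

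Across the chromosome, untreated METTL14 enrichment was shallow. The untreated islands covered 75.5 Mb, 31.1% of the 243.0 Mb spanned, and held 4082860 IP and 4170509 input reads, which gives a pooled fold of 1.05. The median fold of single islands was 1.07 (quartiles 1.00 and 1.15), against 1.08 over the whole table, and 7 islands reached a fold of 2 (0.0693%, background 0.328%). The deposited list of significant islands, those with a false discovery rate under 1e-04, held 269 on chromosome 2, or 2.66% of its candidates, where the background over the whole table was 5.1%. An exact binomial test, with Benjamini-Hochberg adjustment over the whole table, put 286 islands above the scaled input at an adjusted p under 0.05 (2.83%, background 5.17%). It put 6 below input (0.0594%, background 0.0853%). Of the 286, 265 were in the deposited list. With a scaling that sets the wide islands (10 kb or more) to a fold of 1, an alternative added after seeing the data, the same test put 108 above and 29 below, so the counts that follow hold for the authors' scaling. By either rule a chromosome 2 island was called less often than an island of the whole table; this was not tested, since islands are not replicates.

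RHOB encodes a small GTPase that regulates endosomal traffic and the actin cytoskeleton, and it is an immediate early gene with a short-lived mRNA. The island over it, chr2:20642601-20654000, had 2229 IP reads and 854 input reads over 11.4 kb, a fold of 2.80 (2.59 to 3.03; exact binomial test, adjusted p = 4.69e-158). Its IP density was 3.74 times and its input density 1.43 times the median of all untreated candidates, so the enrichment lay in the IP. The upstream neighbour at chr2:20636201-20640200 was called as well, with 359 IP and 286 input reads and a fold of 1.35 (1.15 to 1.58). The next island on the other side, from 20656201, had 116 IP and 123 input reads and a fold of 1.01 (0.78 to 1.31). A further island, chr2:20674401-20676400, had 146 and 115 reads and 1.36-fold (1.06 to 1.75), and it did not pass the test. The depth of the RHOB island was not shared by the islands around it.

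The other named loci were enriched much less. SP5, a zinc finger transcription factor gene and a direct target of Wnt signalling, lay in an island at chr2:171564401-171579200 with 1602 IP and 1221 input reads and a fold of 1.41 (1.31 to 1.52). FZD5, which encodes a Frizzled receptor for Wnt ligands, lay at chr2:208617201-208638800 with 1683 and 1520 reads and 1.19-fold (1.11 to 1.27). CCL20, a chemokine that draws cells bearing the receptor CCR6, lay at chr2:228671201-228690000 with 1715 and 1429 reads and 1.29-fold (1.20 to 1.38). The interval of each of the 3 lay above 1 and below that of RHOB.

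The remaining named loci were FOSL2, ZFP36L2, NFE2L2 and PTMA. FOSL2, a Fos family subunit of the AP-1 factor, had 897 IP and 767 input reads at chr2:28612201-28622000, a fold of 1.25 (1.14 to 1.38). ZFP36L2 encodes a protein that binds AU-rich elements and speeds mRNA decay, and its island at chr2:43444401-43460800 had 1601 and 1421 reads, 1.21-fold (1.13 to 1.30). NFE2L2, the transcription factor NRF2 of the oxidative stress response, lay at chr2:178085201-178112000 with 2268 and 2082 reads, 1.17-fold (1.101 to 1.24). PTMA encodes prothymosin alpha, an abundant acidic nuclear protein, and had 729 and 587 reads at chr2:232570601-232577400, 1.33-fold (1.19 to 1.49).
All 8 loci were picked from the 25 islands of smallest p, so their position above input is a property of the choice. Input density at the 8 ran from 1.34 to 1.66 times the candidate median, and IP density from 1.49 to 3.74 times.

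NFE2L2 did not stand alone. From 178051001 to 178135000, a span of 84.0 kb, 4 islands were called above input with folds of 1.13 to 1.30, the widest 2 being 26.8 kb and 22.2 kb. HNRNPA3, a gene for an RNA-binding nuclear protein, is the neighbouring protein-coding gene in RefSeq. Without hg19 annotation the run was not divided between these genes. The fold named for NFE2L2, untreated or with DRB, may therefore include sequence of HNRNPA3 and leave out part of NFE2L2. Islands on both outer sides of the run were at input level, with folds of 0.99 (0.93 to 1.06) and 1.00 (0.89 to 1.12). One island within the run, from 178055401, was at 1.00 (0.92 to 1.102).

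**Figure D1:**
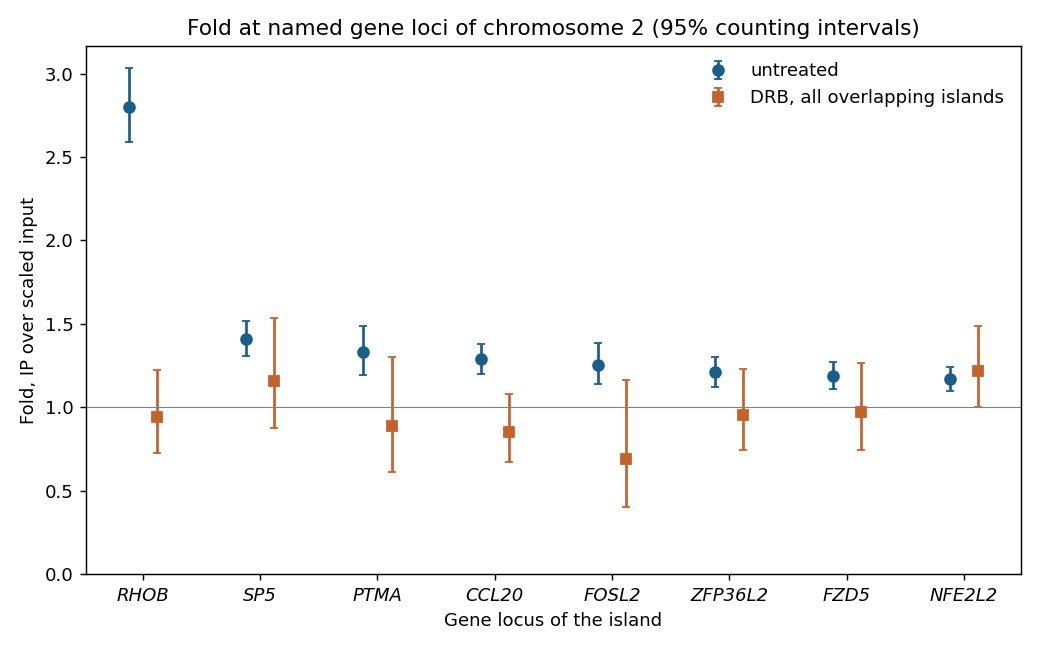
Fold of IP over scaled input (linear axis from 0) at 8 gene loci of chromosome 2, untreated (circles) and over all overlapping DRB islands (squares), with exact 95% counting intervals. RHOB stands at 2.80 untreated and 0.94 with DRB, and at 7 of the 8 loci the DRB value is the lower one. Among the 25 islands of smallest p, which include the 8, it is lower at 19 of the 20 with DRB islands.

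Most islands called above input had a lower input density than these loci. Of the 286, 216 (75.5%) had an input density under the table's median, against 56.9% of all chromosome 2 candidates. The IP density was under its own median in 115 of them (40.2%), against 59.0% of all candidates. It reached 2 times the median in 14 (4.90%), against 35 of all candidates (0.347%). Median densities of the 286 were 0.82 times for the input and 1.05 times for the IP. An example is chr2:141502201-141505200, where 150 IP reads against 81 input reads gave a fold of 1.99 (1.51 to 2.64). Its IP density was 0.96 times and its input density 0.52 times the candidate median. These densities enter the fold that made the call, so they are given as a description.

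**Figure D2:**
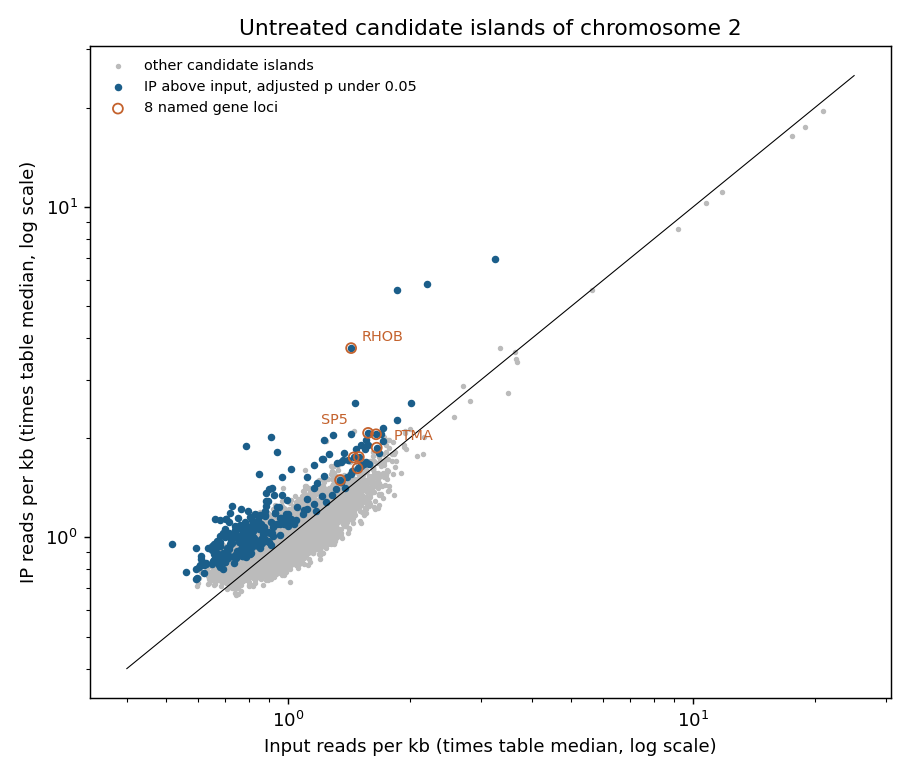
IP against input reads per kb of the 10097 untreated islands, each over its table's median (log axes), with the 286 islands above input in blue and the 8 gene loci ringed in orange; the line marks equal relative density. RHOB lies at 1.43 times the input and 3.74 times the IP median, while most blue points lie left of 1 on the input axis.

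The highest folds came from small islands. The island chr2:230045401-230045800 spans 400 bp within PID1, a gene for an adaptor protein that binds phosphotyrosine motifs. It had 117 IP and 39 input reads, a fold of 3.22 (2.22 to 4.75), with input 1.86 times the median. The DRB island over it, 1.4 kb wide, had 85 and 51 reads, 1.43-fold (1.002 to 2.07), with input 5.20 times the median. The difference did not pass the exact conditional test of the 4 counts (adjusted p = 0.208). A single 200 bp window at chr2:133038601-133038800 had 61 and 23 reads, 2.85-fold (1.74 to 4.82). At chr2:208176001-208176800 there were 79 and 33 reads, 2.57-fold (1.69 to 3.98). At chr2:237933601-237934400 there were 84 and 38 reads, 2.37-fold (1.60 to 3.58). The island at chr2:133011801-133013200 was deeper, with 508 and 238 reads and 2.29-fold (1.96 to 2.68). The remaining islands among the 15 of highest fold, RHOB aside, ran from 2.07 at chr2:28806401-28807600 down to 1.74 at chr2:211602601-211604800, and the intervals of these 2, 1.501 to 2.89 and 1.31 to 2.32, overlapped.

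Fold fell as islands grew wider. The median was 1.15 in 149 untreated islands under 2 kb, 1.104 in 4037 from 2 to 5 kb, 1.07 in 4047 from 5 to 10 kb, 1.04 in 1433 from 10 to 20 kb and 1.00 in 431 of 20 kb or more. The widest island called above input was chr2:54780001-54831400, 51.4 kb with 3784 IP and 3718 input reads, and its fold was 1.09 (1.04 to 1.14). The other 4 of the 5 widest had folds of 1.096 to 1.15. On the other side of the distribution, the lowest fold past the test was 0.77 (0.68 to 0.88) at chr2:84505801-84516800, with 421 IP and 583 input reads. The next was 0.78 (0.67 to 0.92) at chr2:122491401-122496000, with 266 and 365 reads.

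Untreated, the arms were alike in fold and unlike in island density. The widest stretch without an island in either table, 3.03 Mb from 92325001 to 95352600, was taken as the centromere and its middle as the border. The q arm held 6567 untreated islands, 44.0 per Mb, covering 33.1% of the arm, and the p arm held 3530, 37.6 per Mb, covering 27.8%. Pooled folds were 1.04 on the p arm (1.041 to 1.046) and 1.05 on the q arm (1.052 to 1.056), a ratio of 0.990. The exact binomial test put 94 islands of the p arm (2.66%) and 192 of the q arm (2.92%) above input. With DRB the pooled folds were 1.24 on the p arm (1.234 to 1.252) and 1.31 on the q arm (1.306 to 1.321), a ratio of 0.946.

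Along the chromosome, 49 bins of 5 Mb held 19 to 368 untreated islands each, with a median of 205. Islands were dense between 185 and 190 Mb, where 368 covered 64.8% of the bin. They were sparse at the chromosome ends (60 and 66), at the centromere (19), in the bin that ends at 120 Mb (63) and in the one from 130 to 135 Mb (76). The last bin was not full, as the last island ended at 243037000. The bin from 90 to 95 Mb included most of the stretch without islands, and the counts are not scaled for this. Pooled folds of the bins ran from 1.01 to 1.11. The 3 highest were at 80 to 85 Mb (1.11, 1.099 to 1.13), 130 to 135 Mb (1.096, 1.076 to 1.117) and 0 to 5 Mb (1.096, 1.072 to 1.12). The 3 lowest were at 90 to 95 Mb (1.01, 1.00 to 1.03), 60 to 65 Mb (1.01, 1.01 to 1.02) and 70 to 75 Mb (1.02, 1.01 to 1.03).

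Bins of low input density had the higher folds in both conditions. Across the 49 bins, median fold and median input density had a Spearman rho of -0.87 untreated and -0.90 with DRB. The input is the denominator of the fold, so part of this relation is arithmetic. The bins ranked alike in the 2 conditions, which share no library: rho was 0.80 for the median fold, 0.73 for input density and 0.90 for the number of islands. Each bin is the same stretch of sequence in both conditions, and copy number along the chromosome was not measured. These values are descriptions over 49 points.

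**Figure D3:**
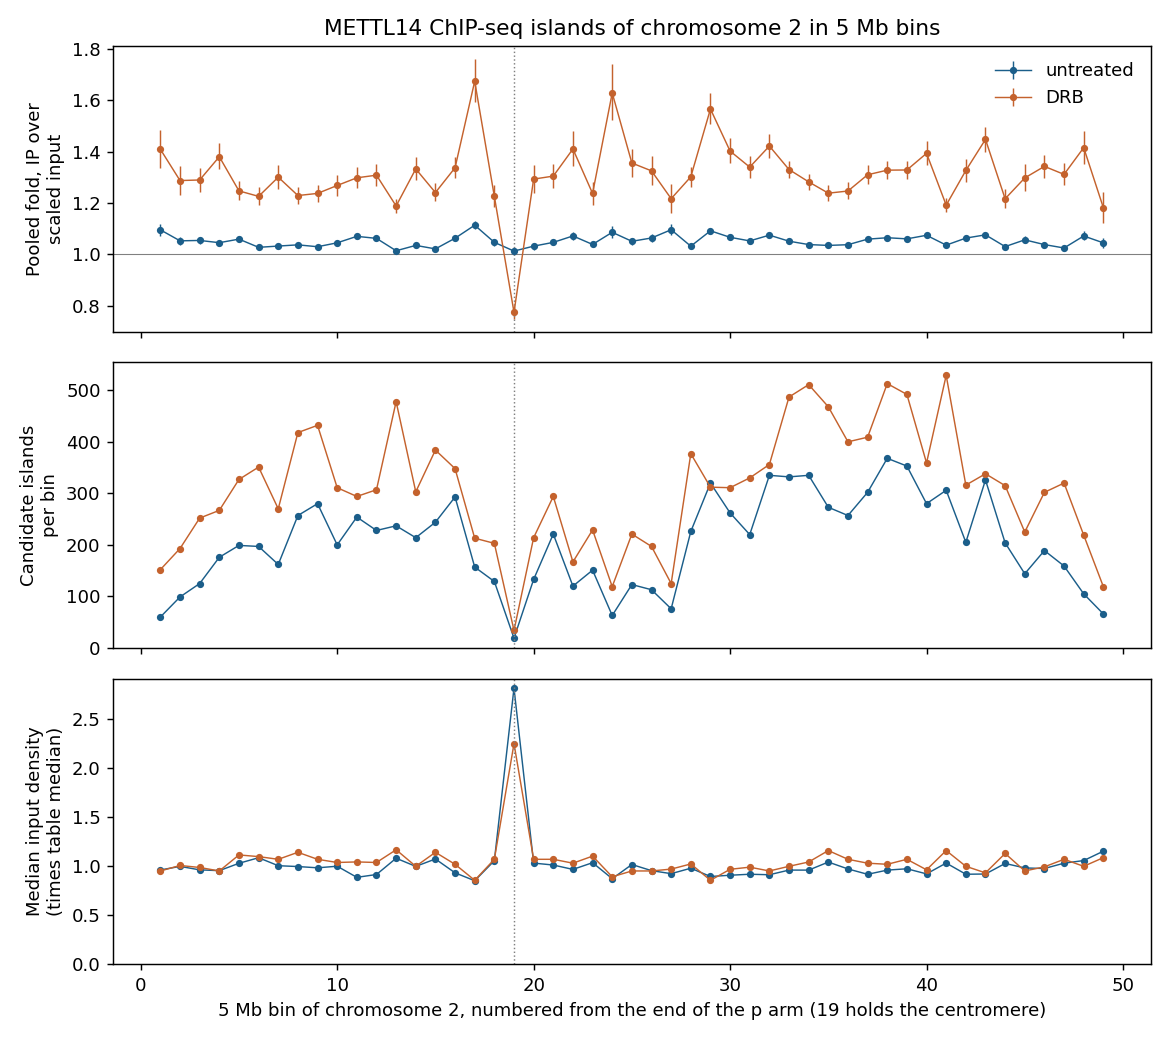
Pooled fold with exact 95% counting intervals (top), number of candidate islands (middle) and median input density over the table's median (bottom) in 49 bins of 5 Mb, numbered from the p arm's end, untreated in blue and DRB in orange. Bin 19, at the centromere, holds 19 and 34 islands and has the lowest pooled folds, 1.01 and 0.78.

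In the DRB table the islands of chromosome 2 were narrower and held far fewer reads, of input as well as of IP. That table rests on 1 library of each kind, so a change in width or reads cannot be told apart from sequencing depth. The 15111 islands had a median width of 2.2 kb against 5.4 kb untreated and a median of 23 IP and 14 input reads against 267 and 270. The median input density was 7.25 reads per kb with DRB and 50.6 untreated. The median fold was 1.43 (quartiles 1.16 and 1.83), against 1.51 over the whole DRB table. The deposited list held 498 of them, 3.30% against a background of 4.76%, with a median fold of 3.66 on a median of 20 IP and 5 input reads. In 389 of the 498 the input had 10 or fewer reads. By the exact binomial test 1 island was above input (0.00662%, background 0.00885%) and 5 were below (0.0331%, background 0.0826%).

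The one DRB island above input was chr2:89866601-89882000, in the proximal p arm, with 1122 IP and 758 input reads and a fold of 1.27 (1.16 to 1.40; exact binomial test, adjusted p = 0.000515). The untreated island over it had 4185 and 4275 reads and 1.05-fold (1.01 to 1.096). Its input density was 7.03 times the DRB median, against 1.94 times over the wider untreated island. The DRB islands with the highest lower bounds of the fold rested on few reads. At chr2:22992801-22993200, 14 IP reads stood against 1 input read, 12.05-fold with an interval of 1.83 to 510. At chr2:105974401-105974600 there were 17 and 2 reads, 7.32-fold (1.74 to 65.3). The 10 such islands had 13 to 20 IP reads and 1 to 3 input reads each, and all had an adjusted p of 0.353.

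Islands next to the centromere had less IP relative to input in the DRB table than in the untreated one. The block from 92266401 to 92325000 abuts the unassembled centromere, where arrays of alpha satellite repeats lie. Untreated, its 8 islands had 23337 IP and 24861 input reads, 1.01-fold (0.99 to 1.03), with input up to 21.0 times the median. With DRB its 10 islands had 5103 and 6044 reads, 0.73-fold (0.70 to 0.75), with input up to 57.0 times the median. All 5 DRB islands below input on chromosome 2 were in this block. The largest, chr2:92315201-92325000, had the same borders in both tables. It had 10026 IP and 10754 input reads untreated, 1.00-fold (0.97 to 1.03), and 2109 and 2523 reads with DRB, 0.72-fold (0.68 to 0.76; exact conditional test of the 4 counts, adjusted p = 8.27e-21).

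A further block lay at 132996601 to 133038800 on the q arm. Its input reached 3.68 times the median untreated and 25.6 times with DRB. Pooled, its fold was 1.13 (1.08 to 1.18) untreated and 0.98 (0.91 to 1.06) with DRB, lower with DRB as at the centromere. The DRB island of highest input, chr2:132996601-132997600, had 0.65-fold (0.52 to 0.82) and did not pass the exact binomial test (adjusted p = 0.147). The block's untreated islands ran from 0.99 to 2.85 in fold. Of the 8, 2, described above, were called, and the others ran from 0.99 to 1.11. At chr2:133011801-133013200, which again had the same borders in both tables, the fold was 2.29 untreated and 1.05 (0.88 to 1.26) with DRB, from 275 IP and 225 input reads (exact conditional test, adjusted p = 7.97e-08). Input density there was 3.25 times the median untreated and 22.96 times with DRB. Between the tables the input thus moved as well as the IP, whose density was 6.94 and 16.1 times the medians. What part repeated sequence has in this was not tested.

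**Figure D4:**
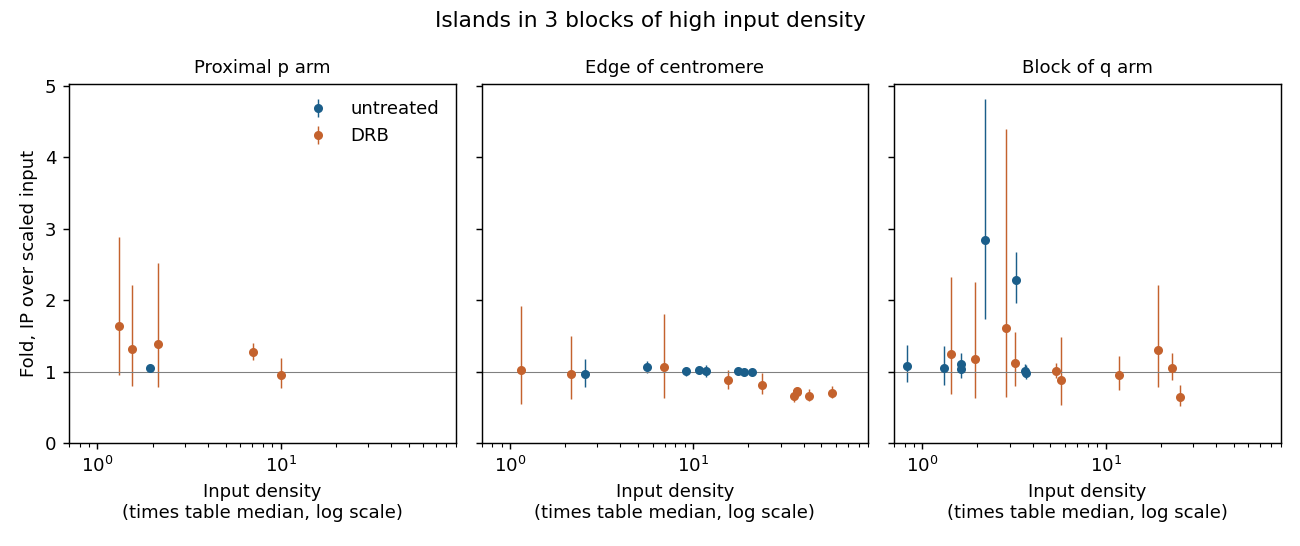
Fold with exact 95% counting intervals against input density over the table's median (log axis) for single islands, untreated in blue and DRB in orange. The 3 blocks shown hold islands of high input with DRB. At the edge of the centromere the untreated islands stay between 0.96 and 1.06, while the 5 DRB islands of highest input lie between 0.66 and 0.72.

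At RHOB the enrichment was lower after DRB. The 3 DRB islands over the untreated one had 64 IP and 58 input reads, 17 and 21, and 45 and 36. Summed, they gave 126 and 115 reads, a fold of 0.94 (0.73 to 1.23) against 2.80 untreated, a ratio of 0.337 (exact conditional test, Benjamini-Hochberg over 23638 islands, adjusted p = 7.48e-12). The 3 DRB islands summed to 7.8 kb against 11.4 kb untreated. The first, chr2:20640601-20644800, gave 64 of the 126 IP reads and began before the untreated island, so the sequence compared was not the same. Relative to each table's median, the IP density was 3.74 times untreated and 1.32 times with DRB, and the input density 1.43 and 2.11 times. With 1 DRB library of each kind the test compares libraries and not conditions.

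The DRB fold was under the untreated one at 7 of the 8 named loci, but RHOB alone passed the test. The 25 islands of smallest p, which include the 8, gave a similar share, 19 of the 20 under DRB islands. It was 89 of 177 among islands called above input, and 1128 of 6513 among all untreated chromosome 2 islands under DRB islands. DRB folds were 0.69 (0.40 to 1.17) at FOSL2, 0.85 (0.68 to 1.08) at CCL20, 0.89 (0.61 to 1.30) at PTMA, 0.96 (0.75 to 1.23) at ZFP36L2, 0.97 (0.74 to 1.27) at FZD5 and 1.16 (0.87 to 1.54) at SP5. NFE2L2 had 1.22 (1.00 to 1.49), above its untreated value. Adjusted p-values of the 7 differences ran from 0.135 at CCL20 to 0.999 at NFE2L2 (exact conditional test). The CCL20 interval lay wholly below the untreated one, and the other 6 overlapped it. Relative input density was higher with DRB than untreated at 7 of the 8, from 1.66 times at PTMA to 2.5 times at FOSL2. NFE2L2, with 1.34 times, was the exception. At PTMA (1.65 untreated) and ZFP36L2 (1.66 untreated, 1.68 with DRB) it hardly differed. DRB values come only from DRB islands, which summed to less width than the untreated island at each locus. At FOSL2 they rest on 28 IP and 35 input reads over 2 kb, against 9.8 kb untreated. At FZD5 the widths were 7.2 and 21.6 kb, and at SP5 7.6 and 14.8 kb. No such share over all islands is given, so this count of loci has no background. Choosing the loci by their untreated reads favours a lower DRB value.

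Over the whole chromosome the DRB fold at islands called untreated was close to that at all islands. DRB islands lay over 6513 of the 10097 untreated islands, with median folds of 1.05 untreated and 1.32 with DRB. Only places where the caller found a DRB island entered, and chromosome 2 DRB islands had a median of 23 IP reads. Their median fold was 1.72 under 2 kb and 1.05 from 10 to 20 kb. These medians therefore do not measure a change after DRB. Among the 286 called above input, DRB islands lay over 177, and the medians there were 1.30 and 1.34. The difference passed the exact conditional test at 8 chromosome 2 islands with a lower and at 5 with a higher DRB fold (0.123% and 0.0768% of 6513; backgrounds 0.465% and 0.0931%). The balance depended on the setting, with 7 lower and 23 higher under the scaling on wide islands, and 6 and 0 in pairs that cover each other by at least 50%. The 8 were RHOB, chr2:133011801-133013200, 5 islands at the edge of the centromere and chr2:198310001-198320400. At the last, 736 IP and 708 input reads gave 1.12-fold (1.00 to 1.24) untreated, and 101 and 134 reads gave 0.65-fold (0.50 to 0.85) with DRB. The largest higher value was at chr2:64009801-64022000, where 527 and 607 reads gave 0.93-fold (0.83 to 1.05) untreated and 70 and 25 reads gave 2.41-fold (1.51 to 3.97) with DRB.

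The deposited lists met each other at shares near those of unlisted candidates. By at least 1 bp, 7 islands of each list met one of the other, 2.60% of the 269 untreated and 1.41% of the 498 DRB islands. Among candidates outside the lists, 2.10% of the untreated met the DRB list and 1.63% of the DRB met the untreated list. In all 7 the DRB fold was the higher, from 2.33 to 12.05 against 1.19 to 1.54 untreated, on 14 to 46 IP reads. The choice fixes this direction, since the DRB list has a median fold of 3.66, and none of the 7 differences passed the exact conditional test (adjusted p from 0.488 to 0.750). None of the 7 was among the named gene loci. Any DRB candidate island lay under 59.9% of the untreated list and under 64.6% of the untreated candidates outside it. Any untreated candidate lay over 42.4% of the DRB list and over 69.3% of the DRB candidates outside it.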

How the data were processed

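Per the submitters' processing notes, reads were handled with FastQC 0.11.5, Bowtie 1.1.2 and SICER on hg19; how the 2 untreated replicates were pooled, and the caller's settings, were not given in the sources used. The tables have no header, and what each column holds was worked out from its values. Deposited read counts per island, IP and input, are raw. The fold ratio that the authors deposited is 1 constant per table times the quotient of these counts, and the deposited p-value and false discovery rate come from the authors. The deposited lists equal the islands with a rate under 1e-04.

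Members, gene loci and comparisons were chosen with earlier results of these data known. Folds, exact intervals, exact two-sided binomial tests and exact conditional tests (Fisher's noncentral hypergeometric distribution, all DRB reads over an untreated island summed) were computed, with Benjamini-Hochberg adjustment over each whole table at a threshold of 0.05. Relative densities are reads per kb over the table's median. Islands were put in 5 Mb bins by their middle. Named islands were, untreated, the 15 of highest fold and the 5 widest above input, the 5 of lowest fold below it and the 5 of highest input density. With DRB they were those past the test, the 10 of highest lower bound and the 5 of highest input density. The 5 largest differences and the 3 highest and lowest bins of at least 10 islands were added. The 25 of smallest p, from which the 8 gene loci come, and the 4 printed promoters were chosen after the values were seen. A planned list of chromosome 2 genes was not placed, because hg19 annotation was not used here. Tests were tested on simulated data. Alternatives covered the rate, the test, scaling, overlap, merging, width, bins and high input. SciPy 1.17.1 gave the tests and matplotlib 3.10.9 the figures, with pandas 2.3.3 and numpy 2.4.6 under Python 3.11.15.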

Additional observations from a re-analysis of the deposited data

Results flagged for a closer look

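At 13 chromosome 2 islands the fold differed between untreated and DRB cells by the exact conditional test. This compares single DRB libraries with pooled untreated ones over islands of unlike extent, and no cause was tested. The ratio of folds, DRB to untreated, was 0.337 at RHOB (chr2:20642601-20654000), 0.459 at chr2:133011801-133013200 and 0.582 at chr2:198310001-198320400. At the edge of the centromere it was 0.676, 0.702, 0.671, 0.721 and 0.719 in the islands that start at 92272601, 92289801, 92295801, 92305201 and 92315201. It was above 1 at 5 islands, with 1.45 at chr2:32130401-32167600, 1.36 at chr2:39505601-39550800, 2.59 at chr2:64009801-64022000, 1.18 at chr2:89848401-89890600 and 1.70 at chr2:186392201-186423200.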

How the results depend on the processing

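No paired analysis was possible because the deposited tables pool the replicates, and for the same reason no replicate could be left out. The untreated list of 269 fell to 129 at a 10 times lower false discovery rate, and the 498 DRB islands fell to 157. The exact binomial test left 1 DRB island, also when the scaling was centred on islands of at least 10 kb (an alternative added after seeing the data). That scaling moved the untreated calls to 108 above and 29 below input, so the number and the balance of shallow calls depend on it. Pooled folds became 1.02 untreated and 1.32 with DRB under it. The DRB pooled fold was 1.30 without high-input islands (5 times the table's median or more) and 1.21 over islands of at least 2 kb, and its p to q arm ratio went from 0.946 to 0.966 without the former. With bins shifted by 2.5 Mb the highest untreated bin had 1.14, at 122.5 to 127.5 Mb. Shared islands numbered 2 at 50% reciprocal overlap and 2 at the lower rate. Differences with a higher DRB fold numbered 23 under the centred scaling and 0 in islands that cover each other by at least 50%, against 5; those with a lower one numbered 7 and 6, against 8. RHOB kept its difference under the centred scaling, with a ratio of 0.356 (exact conditional test, adjusted p = 1.59e-10). The DRB depth limits every value of that table.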
